A study of Homo sapiens with 6 samples.

Results

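The RNA interference machinery was followed through 10 genes, namely AGO1, AGO2, AGO3, AGO4, DICER1, DROSHA, DGCR8, TARBP2, XPO5 and TNRC6A. They were found by symbol in the deposited gene table, in which each symbol was listed once among 74852 genes. All 10 were tested, since each averaged 10 normalized counts or more, as did 18717 genes in all. The libraries were made from MDA-MB-231 cells, a human triple-negative breast cancer (TNBC) cell line, in an experiment that asked how the kinase NEK2 shapes the transcriptome of these cells. In the si-CTRL group the cells received a pool of control siRNAs without a target, and in the si-NEK2 group a pool of siRNAs against NEK2, with 3 libraries in each group. Both groups were grown in the same high-glucose medium with serum and were transfected in repeated rounds with a lipid reagent, and the labels give a harvest 24 h after the last round. The 2 groups therefore share the lipid and the load of siRNA, which itself enters Argonaute proteins, and untransfected cells were not analysed here.

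MicroRNAs (miRNAs) are short RNAs that pair with mRNAs and repress them. In the nucleus, the Microprocessor (DROSHA with its partner DGCR8) cuts hairpins out of primary transcripts, and Exportin 5 (XPO5) carries the hairpins to the cytoplasm. There, Dicer (DICER1) with TRBP (TARBP2) cuts them again and hands them to an Argonaute protein, which recruits TNRC6 proteins and, through them, the enzymes that shorten and decap the mRNA. PolyA-enriched RNA was sequenced, so that the mRNAs of this machinery were measured, and the mature miRNAs and the proteins were not.

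Recovered reads ranged from 52625492 to 87454509 per library, and the members were covered by 384 to 11595 reads in each library. NEK2 fell from 3702, 3323 and 3290 normalized counts in the si-CTRL libraries to 284, 362 and 388 in the si-NEK2 libraries (log2 fold change -3.32 ± 0.12 SE, adjusted p = 1.86e-06 by limma). The mesenchymal marker VIM was between 134282 and 173162 normalized counts and COL1A1, a stromal gene, between 134168 and 181387, with overlapping groups for both. ESR1, PGR, CDH1 and EPCAM had at most 16 reads in any library, and PTPRC and PECAM1, of leukocytes and endothelium, at most 31. ERBB2 was present and rose with a log2 fold change of 0.53 ± 0.12 SE (adjusted p = 0.00744 by limma).

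The members did not move as a block. XPO5 had the largest change, with 58.4% of its si-CTRL level left after NEK2 silencing, and AGO2 fell to 83.2%. TNRC6A rose to 132%, DICER1 to 131%, TARBP2 to 122% and DROSHA to 119%. AGO1, AGO3, AGO4 and DGCR8 did not pass the test. At an adjusted p of at most 0.05 (limma, Benjamini-Hochberg over all 18717 genes), 6 of the 10 members passed, against 43.1% of all genes tested. Of these, 4 were higher (21.8% of all genes were higher) and 2 were lower (21.3% of all genes were lower) in si-NEK2 cells. Normalized counts of the groups did not overlap for 7 members, which was so for 55% of all genes tested. With the filter raised to a mean of at least 50 normalized counts, 7 members and 50.6% of all genes tested were called. The study's methods set a p no higher than 0.05 with a change of 1.5-fold or more, without saying whether p was adjusted. With these cutoffs on the unadjusted limma p, XPO5 was the 1 member that passed, against 22.5% of all genes. The study's own test was not repeated. The median log2 fold change was 0.19 over the members and 0.01 over all genes tested. With all libraries scaled to an equal total, the median of all genes moved to -0.12, and 2 members were higher and 2 lower. Of all genes tested, 41.9% were called at this scaling. Upper quartile scaling gave 3 higher and 2 lower, and quantile scaling 4 higher and 2 lower, beside 42.1% and 40.1% of all genes called. Without si-NEK2 1, si-NEK2 2 or si-NEK2 3, XPO5 was the 1 member lower. Of all genes tested, 33.8%, 31.5% and 35.2% were called in these fits.

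**Figure D1:**
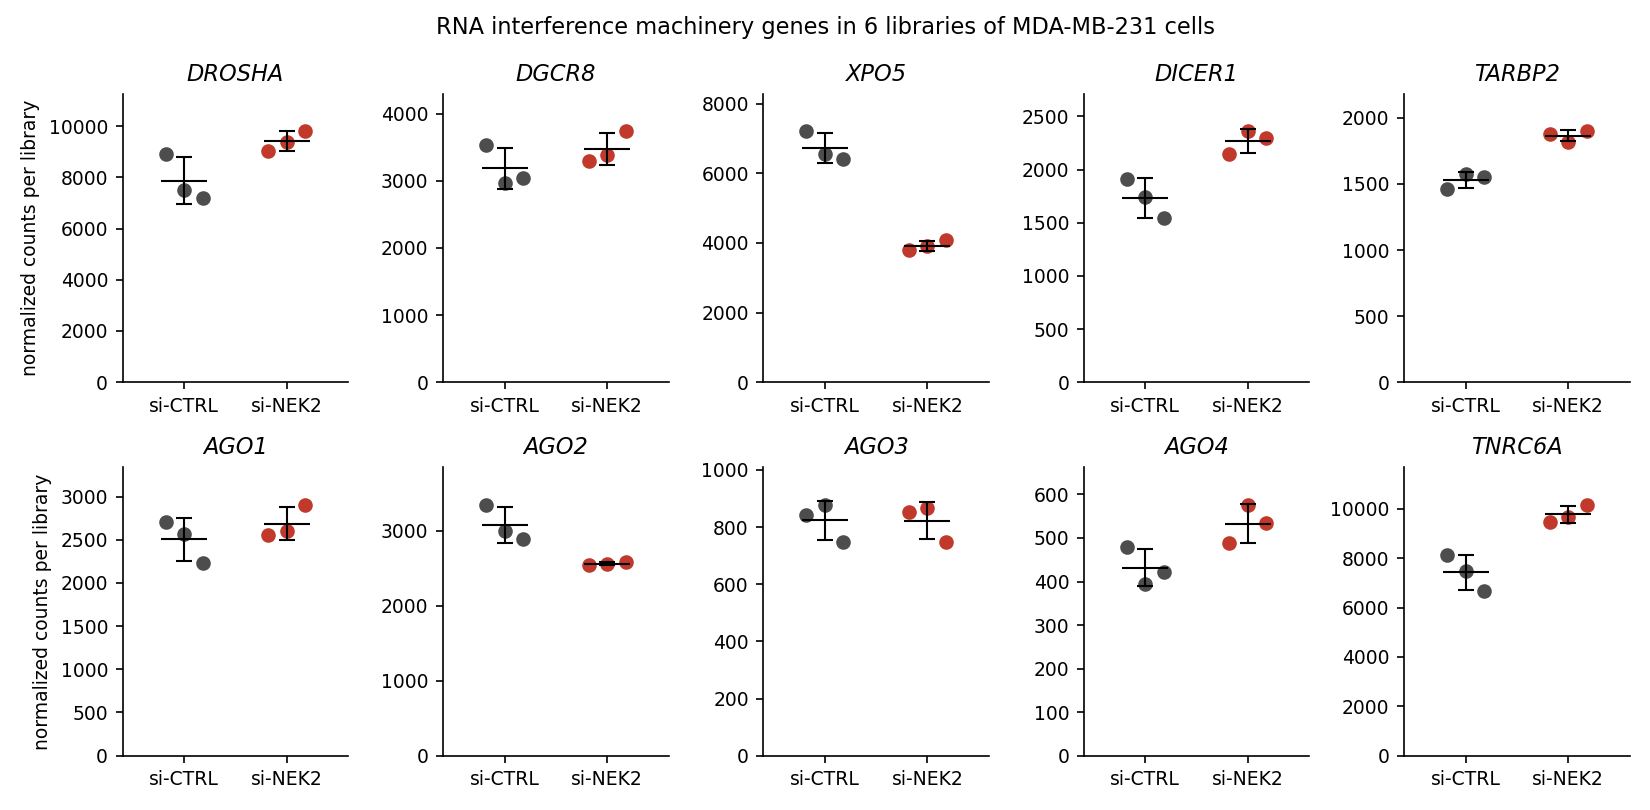
Normalized counts (vertical axis, from 0) of the 10 genes in each library of si-CTRL (grey points) and si-NEK2 (red points), with the mean as a horizontal line and the SD (n = 3) as a bar. XPO5 lies between 6397 and 7207 in si-CTRL and between 3789 and 4075 in si-NEK2, whereas the groups of AGO1, AGO3 and DGCR8 overlap.

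The Microprocessor genes stood at the top of the pathway. DROSHA, the RNase III enzyme that cuts primary transcripts (chromosome 5, 31374902 to 31532282 in hg19), had 8921, 7496 and 7212 normalized counts in si-CTRL and 9029, 9378 and 9808 in si-NEK2. All si-NEK2 libraries were above all si-CTRL libraries, but the highest si-CTRL library was close to the lowest si-NEK2 library. DROSHA rose with a log2 fold change of 0.26 ± 0.09 SE (95% CI 0.06 to 0.46, adjusted p = 0.0391 by limma). This call was the least stable of the 6. It was kept in 6 of 17 alternatives, and was lost, with a limma adjusted p of up to 0.127, without any 1 of the libraries si-CTRL 2, si-CTRL 3, si-NEK2 1, si-NEK2 2 or si-NEK2 3 and, at 0.254, with equal totals.

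DGCR8, the RNA-binding partner of DROSHA (chromosome 22, 20067755 to 20099398 in hg19), had 3533, 2974 and 3044 normalized counts in si-CTRL and 3294, 3385 and 3739 in si-NEK2. The groups overlapped, since si-CTRL 1 was above 2 of the si-NEK2 libraries. The log2 fold change was 0.13 ± 0.09 SE (95% CI -0.07 to 0.33, adjusted p = 0.278 by limma), and was -0.001 with equal totals. Without si-CTRL 1 it was 0.20 (adjusted p = 0.0244 by limma). The ratio of DROSHA to DGCR8 within a library, whose change depends neither on the scaling between libraries nor on gene length, was 2.47 ± 0.09 in si-CTRL and 2.71 ± 0.08 in si-NEK2 (SD, n = 3). The ratios of the groups did not overlap, with an exact two-sided permutation p of 0.10, the smallest that 3 against 3 libraries can give, and of 0.14 after Benjamini-Hochberg adjustment over the 26 family quantities computed.

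The table row of DGCR8 also carries the miRNA genes MIR1306 and MIR3618, which lie inside it, and the Microprocessor is known to cut a hairpin in the DGCR8 transcript itself. Their mature sequences are shown because reads on these hairpins cannot be told apart from DGCR8 mRNA in this row. They come from RefSeq (GRCh38.p14) and are written 5′ to 3′ with the seed, bases 2 to 8, in capitals. The 3 seeds differ from each other.
miR-1306-5p: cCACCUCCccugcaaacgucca
miR-1306-3p: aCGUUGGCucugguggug
miR-3618: uGUCUACAuuaaugaaaagagc

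Among the 10 genes, XPO5 had the largest change in either direction. XPO5, the exportin of miRNA hairpins (chromosome 6, 43490069 to 43543812 in hg19), had 7207, 6557 and 6397 normalized counts in si-CTRL and 3789, 3905 and 4075 in si-NEK2. The groups were far apart, with every si-NEK2 library well under the lowest si-CTRL library. XPO5 fell from 6720 ± 429 to 3923 ± 144 (SD, n = 3), a log2 fold change of -0.78 ± 0.07 SE (95% CI -0.94 to -0.62, adjusted p = 7.12e-05 by limma). The call was kept in 17 of 17 alternatives, with log2 fold changes between -0.90 and -0.72. In bulk RNA, a lower level in fewer cells and less RNA in every cell cannot be told apart. The ratio of XPO5 to DROSHA within a library was 0.808, 0.875 and 0.887 in si-CTRL and 0.420, 0.416 and 0.415 in si-NEK2. The si-NEK2 libraries thus differed from each other by little, and the mean ratio went from 0.857 ± 0.043 to 0.417 ± 0.002 (SD, n = 3, exact permutation p = 0.10).

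The promoter sequences of XPO5 and TNRC6A are shown because XPO5 had the largest fall among the members and TNRC6A had 1 of the rises kept in 17 of 17 alternatives, the other being DICER1, whose change was of the same size within the error. Both run 5′ to 3′ on the strand of the gene from 250 bases before to 30 bases after the RefSeq start, in GRCh38.p14, at chr6:43576009-43576288 (minus strand) for XPO5 and chr16:24729401-24729680 (plus strand) for TNRC6A. Capitals mark TGCGCA, the core of the NRF1 motif, which reads the same on both strands, and CTTCCG or its reverse complement, the core of the ETS motif.
XPO5: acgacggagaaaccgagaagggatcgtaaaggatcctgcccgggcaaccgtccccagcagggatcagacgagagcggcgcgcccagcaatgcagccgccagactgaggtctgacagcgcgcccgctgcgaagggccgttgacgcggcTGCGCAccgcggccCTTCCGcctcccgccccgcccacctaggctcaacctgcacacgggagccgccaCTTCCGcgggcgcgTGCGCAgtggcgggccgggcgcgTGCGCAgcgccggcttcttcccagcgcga
TNRC6A: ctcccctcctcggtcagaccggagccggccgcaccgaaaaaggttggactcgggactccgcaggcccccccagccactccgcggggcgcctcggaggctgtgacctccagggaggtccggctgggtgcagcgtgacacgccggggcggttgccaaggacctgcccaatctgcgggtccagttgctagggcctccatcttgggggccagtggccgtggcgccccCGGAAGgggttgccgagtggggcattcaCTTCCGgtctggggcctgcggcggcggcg

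The XPO5 sequence holds TGCGCA 3 times and CTTCCG 2 times, and that of TNRC6A holds the ETS core 2 times and no TGCGCA. Of 35116 promoter windows in the RefSeq table, each from 250 bases before to 50 bases after a start, 8.24% hold TGCGCA and 19.5% hold CTTCCG on either strand. A window was at hand for 9 of the 10 members, with 15 windows in all since some have several starts, and 2 members (XPO5 and AGO1) hold TGCGCA in a window while 6 hold the ETS core. The ETS core was present both in XPO5, which fell, and in TNRC6A, which rose. Among other motifs searched on both strands, the GC box GGGCGG was in windows of 8 members (45.0% of all windows) and CCAAT in those of 6 (34.6%). A member was counted where any of its windows held the motif, whereas the percentages are over single windows. The counts of members and the percentages are therefore unlike in unit, and no excess can be read from them. No member window held CACGTG (7.26% of all windows), TTTCCCGC (1.63%) or TATAAA (11.5%). A match is a run of letters in the reference sequence and not a measured binding site.

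Both genes of the cytoplasmic cutting step rose, whereas XPO5 fell. DICER1, the RNase III enzyme that makes the miRNA duplex (chromosome 14, 95552565 to 95624347 in hg19), had 1915, 1737 and 1546 normalized counts in si-CTRL and 2148, 2361 and 2295 in si-NEK2. Every si-NEK2 library was above every si-CTRL library. DICER1 rose with a log2 fold change of 0.39 ± 0.09 SE (95% CI 0.18 to 0.60, adjusted p = 0.00829 by limma), and the call was kept in 17 of 17 alternatives.

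TARBP2, which encodes TRBP, the double-stranded RNA-binding partner of Dicer (chromosome 12, 53894705 to 53900213 in hg19), had 1460, 1574 and 1550 normalized counts in si-CTRL and 1882, 1817 and 1900 in si-NEK2. The spread within each group was small against the gap between them. TARBP2 rose with a log2 fold change of 0.29 ± 0.07 SE (95% CI 0.13 to 0.45, adjusted p = 0.00994 by limma). With equal totals the log2 fold change was 0.16 (adjusted p = 0.103 by limma), whereas the other 16 alternatives kept the call.

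DICER1 and TARBP2 kept their ratio within the error, with 1.14 ± 0.16 in si-CTRL and 1.22 ± 0.08 in si-NEK2 (SD, n = 3, exact permutation p = 0.50). In contrast, the ratio of DICER1 to XPO5 went from 0.266, 0.265 and 0.242 to 0.567, 0.605 and 0.563. All si-NEK2 ratios were above all si-CTRL ratios, with a difference in means of 0.321 (exact permutation p = 0.10).

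Of the 4 Argonaute genes, 1 fell and the others did not pass the test. AGO2, the Argonaute that can slice its target (chromosome 8, 141541265 to 141645646 in hg19), had 3346, 2998 and 2889 normalized counts in si-CTRL and 2544, 2556 and 2580 in si-NEK2. The si-NEK2 libraries were nearly equal and all below the si-CTRL libraries. AGO2 fell by 0.26 ± 0.08 SE on the log2 scale (95% CI -0.43 to -0.09, adjusted p = 0.0199 by limma). The call was kept in 14 of 17 alternatives and was lost when si-NEK2 1, si-NEK2 2 or si-NEK2 3 was left out (adjusted p of 0.0664, 0.0742 and 0.0556 by limma, log2 fold change between -0.26 and -0.27).

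AGO1, AGO3 and AGO4 lie one after the other on chromosome 1 and encode Argonautes known for repression without efficient slicing. AGO4 (36273828 to 36323481 in hg19) had 480, 395 and 421 normalized counts in si-CTRL and 488, 577 and 536 in si-NEK2. The groups of AGO4 did not overlap, but the highest si-CTRL library was just under the lowest si-NEK2 library. The log2 fold change was 0.30 ± 0.11 SE (95% CI 0.05 to 0.56, adjusted p = 0.054 by limma). It passed in 3 of 17 alternatives, 1 of which left out si-CTRL 1 (0.38, adjusted p = 0.0112 by limma).

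AGO1 (36335409 to 36389899) had 2711, 2570 and 2233 normalized counts in si-CTRL and 2558, 2599 and 2907 in si-NEK2. These values overlapped, with a log2 fold change of 0.10 ± 0.09 SE (95% CI -0.11 to 0.31, adjusted p = 0.395 by limma) that was -0.02 with equal totals. AGO3 (36396319 to 36522062) had 844, 878 and 748 normalized counts in si-CTRL and 852, 866 and 749 in si-NEK2. The libraries of AGO3 covered the same range in both groups, with a log2 fold change of -0.002 ± 0.10 SE (95% CI -0.23 to 0.22, adjusted p = 0.99 by limma).

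The summed normalized counts of the 4 Argonaute genes were 6838 ± 544 in si-CTRL and 6604 ± 165 in si-NEK2 (SD, n = 3), a difference smaller than the spread of the si-CTRL libraries (exact permutation p = 0.60). Within this sum the shares of 3 genes did not overlap between the groups, although the exact test used for them cannot pass with 3 libraries a group. AGO2 held 45.3%, 43.8% and 45.9% in si-CTRL and 39.5%, 38.7% and 38.1% in si-NEK2, so that all si-NEK2 libraries were lower, by 6.25 percentage points on average. The share of AGO1 was 36.6% ± 1.0 in si-CTRL and 40.7% ± 2.0 in si-NEK2, and that of AGO4 6.32% ± 0.48 and 8.07% ± 0.60 (SD, n = 3). The groups of each of these 3 shares did not overlap (exact permutation p = 0.10 for each, 0.14 after adjustment over the 26 quantities). These are not 3 separate results, since a lower share of AGO2 raises the shares of the other Argonaute genes. Some of the 26 quantities also restate others, on a log2 scale or per kilobase. AGO3 held 12.1% ± 0.7 and 12.5% ± 1.2 (exact permutation p = 0.70). Per kilobase of exon, which allows the genes to be set against each other, AGO2 went from 42.8% to 36.2% of the Argonaute sum and AGO1 from 36.8% to 40.1%, so that AGO2 led in every si-CTRL library and AGO1 in every si-NEK2 library.

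**Figure D2:**
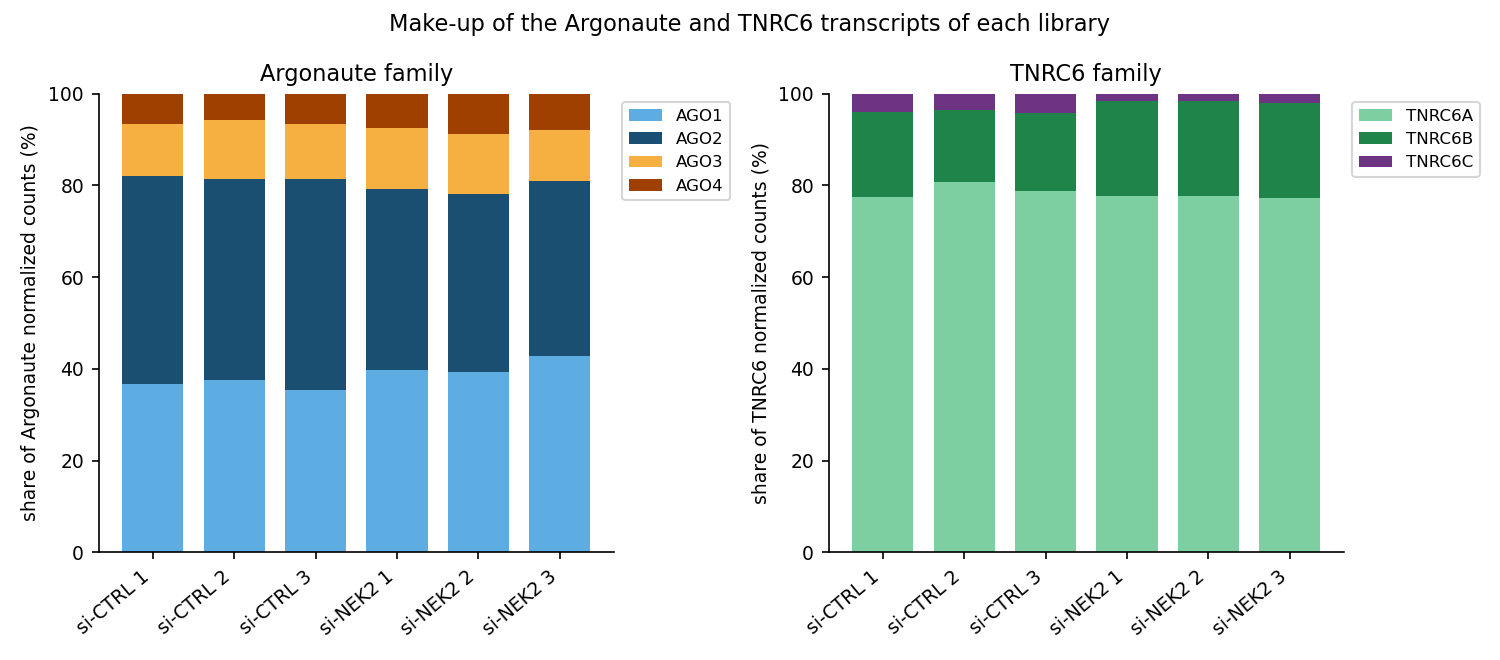
Shares (percent, vertical axis) of the summed normalized counts of the 4 Argonaute genes and of the 3 TNRC6 genes in each of the 6 libraries. AGO2 goes from a mean of 45.0% in si-CTRL to 38.8% in si-NEK2, and TNRC6C lies between 3.70% and 4.23% in si-CTRL and between 1.63% and 2.03% in si-NEK2.

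TNRC6A, a scaffold that binds Argonaute and brings in the deadenylases (chromosome 16, 24545525 to 24837545 in hg19), had 8119, 7486 and 6678 normalized counts in si-CTRL and 9489, 9662 and 10172 in si-NEK2. Every si-NEK2 library was above every si-CTRL library. TNRC6A rose with a log2 fold change of 0.40 ± 0.08 SE (95% CI 0.22 to 0.58, adjusted p = 0.00412 by limma), in 17 of 17 alternatives. The ratio of AGO2 to TNRC6A within a library was 0.415 ± 0.016 in si-CTRL and 0.262 ± 0.008 in si-NEK2 (SD, n = 3, exact permutation p = 0.10).

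The paralogs of TNRC6A, which are not among the 10 genes, went in opposite directions. TNRC6B had 1941, 1449 and 1452 normalized counts in si-CTRL and 2540, 2568 and 2730 in si-NEK2, and rose by 0.71 ± 0.12 SE on the log2 scale (adjusted p = 0.00141 by limma). TNRC6C had 427, 343 and 359 normalized counts in si-CTRL and 199, 204 and 268 in si-NEK2, with a log2 fold change of -0.76 ± 0.15 SE (adjusted p = 0.00357 by limma). Neither had overlapping groups, and both calls were kept in 17 of 17 alternatives. The TNRC6 sum was 9418 ± 1006 normalized counts in si-CTRL and 12610 ± 495 in si-NEK2 (SD, n = 3, exact permutation p = 0.10), and TNRC6A held 78.9% and 77.5% of it. The share of TNRC6C was below its si-CTRL values in every si-NEK2 library, with 1.63%, 1.64% and 2.03% in si-NEK2 against 4.08%, 3.70% and 4.23% in si-CTRL (exact permutation p = 0.10).

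**Figure D3:**
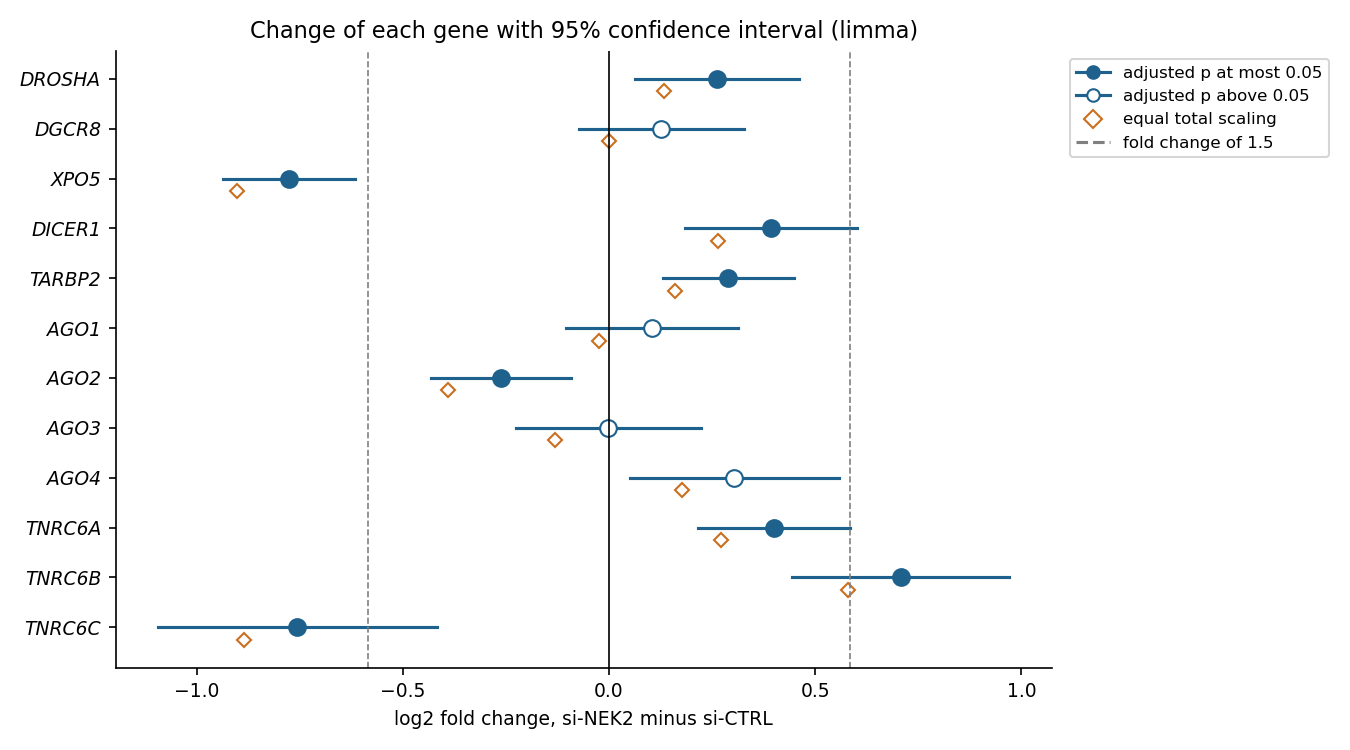
Log2 fold change (si-NEK2 minus si-CTRL, horizontal axis) of the 10 genes and of TNRC6B and TNRC6C, with the 95% confidence interval of limma as a line, filled where the adjusted p was at most 0.05, and with the value under equal total scaling as a diamond. XPO5 at -0.78 is the only one of the 10 beyond the dashed lines of a 1.5-fold change, and with equal totals the values of all 12 genes lie lower.

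To compare levels between genes, normalized counts were divided by the length of the merged exons of each gene in kilobases (GENCODE v29). In si-CTRL, DROSHA led with 1450 ± 169 normalized counts per kilobase, followed by XPO5 with 1253 ± 79.9 and TNRC6A with 878 ± 85.4 (SD, n = 3). Then came TARBP2 with 781 ± 30.7 and DGCR8 with 705 ± 67.4. The cytoplasmic nuclease and the Argonautes were lower, with AGO2 at 211 ± 16.4, AGO1 at 181 ± 17.8, DICER1 at 162 ± 17.2, AGO4 at 60.7 ± 6.10 and AGO3 at 40.1 ± 3.28 normalized counts per kilobase. The ranges over libraries overlapped between DROSHA and XPO5, TNRC6A and TARBP2, TARBP2 and DGCR8, and AGO1 and DICER1. The ranges of the other neighbours did not overlap. Within each si-CTRL library DROSHA was above XPO5, and AGO1 was above DICER1. The order of TARBP2 against TNRC6A and against DGCR8 is not resolved.

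In si-NEK2, XPO5 was at 731 ± 26.8 normalized counts per kilobase and went from rank 2 to rank 5. TNRC6A (1156 ± 42.0), TARBP2 (954 ± 22.5) and DGCR8 (769 ± 52.0) were ranked above it, although the ranges of DGCR8 and XPO5 overlapped. DICER1 was at 212 ± 10.2 and went from rank 8 to rank 6, while AGO2 was at 176 ± 1.25 and went from rank 6 to rank 8. The range of DICER1 overlapped with that of AGO1 (195 ± 13.8) but not with that of AGO2. With the length of the longest transcript in place of the merged exons, the order in si-CTRL was the same. This check could change little, since the 2 lengths were close for these genes (14.6 and 14.6 kb for AGO2, 10.7 and 10.3 kb for DICER1). Both come from the annotation, and which transcript ends these cells use was not tested, so levels per kilobase may be understated for genes with long annotated exons.

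**Figure D4:**
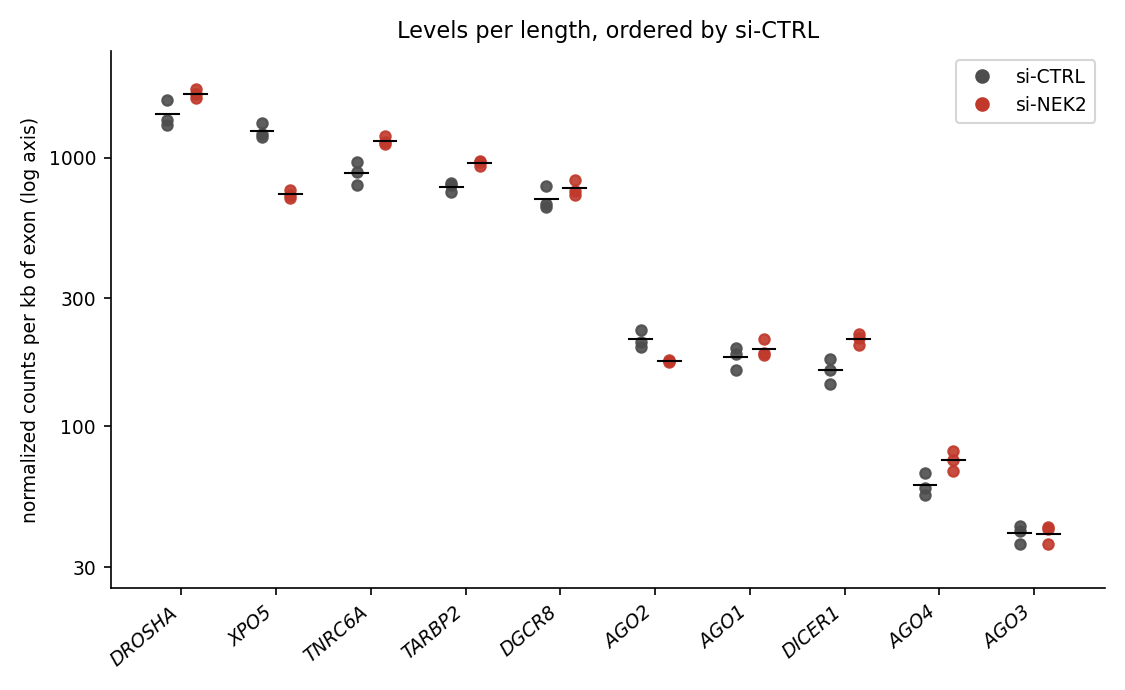
Normalized counts per kilobase of exon (log axis) of the 10 genes in each library of si-CTRL and si-NEK2. DROSHA is highest in both groups and AGO3 lowest, and XPO5 goes from a mean of 1253 to 731.

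The members were next set beside 105 other genes of the miRNA pathway in 6 lists, of which 96 were tested and 55 passed (adjusted p of at most 0.05, limma), beside 43.1% of all genes tested. With the filter raised to a mean of at least 50, 54 list genes were called, beside 50.6% of all genes tested. For the list counts below, 41.9% of all genes were called with equal totals, 42.1% with upper quartile and 40.1% with quantile scaling. The share was 49.9% without si-CTRL 1, and 33.8%, 31.5% and 35.2% without si-NEK2 1, si-NEK2 2 and si-NEK2 3. Of the nuclear processing cofactors, 4 of 18 were higher and 4 lower, that is 44.4% called beside 43.1% of all genes, with a median log2 fold change of 0.04. Without si-CTRL 1 the number higher was 7, and without si-NEK2 2 and si-NEK2 3 it was 1 and 2. NCBP1 (0.33, adjusted p = 0.00168), a subunit of the cap-binding complex, RAN (0.28, adjusted p = 0.0103), the GTPase that XPO5 needs for export, and SRSF3 (0.27, adjusted p = 0.0414), a splicing factor that binds near hairpins, rose. HNRNPA2B1 (-0.79, adjusted p = 9.09e-05), a reader that associates with DGCR8, ADARB1 (-0.69, adjusted p = 0.000652), an RNA editing enzyme, and SRRT (-0.28, adjusted p = 0.0496), which links the cap-binding complex to the Microprocessor, fell. NCBP2, the other subunit of the cap-binding complex, also fell (-0.28, adjusted p = 0.00875 by limma), and its call was kept in 17 of 17 alternatives. NCBP1 and NCBP2 thus went in opposite directions. The change of RAN was opposite in sign to that of XPO5. The call of RAN was kept in 14 of 17 alternatives, and was lost without si-NEK2 2 (limma adjusted p = 0.0529), with equal totals (0.115) and with quantile scaling (log2 fold change 0.10, adjusted p = 0.232). SRSF3, called in 7 alternatives, was lost without any 1 of the si-NEK2 libraries (up to 0.133) and went down to 0.06 with quantile scaling (adjusted p = 0.644 by limma) and to 0.16 without si-CTRL 1. SRRT, called in 11, was also lost without any 1 of the si-NEK2 libraries (up to 0.171), and was -0.16 without si-CTRL 1 and -0.42 with quantile scaling. NCBP1 kept its call, with 0.20 under quantile scaling. With equal totals the list had 1 higher and 6 lower, and with quantile scaling 1 higher and 7 lower.

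Among 15 Dicer partners and factors of RISC loading, the step in which the duplex enters an Argonaute, 7 were higher and 1 lower (21.8% and 21.3% of all genes), with a median of 0.11. Leaving out 1 si-NEK2 library lowered the number higher to 4 (si-NEK2 1 or si-NEK2 3) or 3 (si-NEK2 2). The chaperone HSP90AA1 (0.61, adjusted p = 0.000242 by limma), the importin IPO8 (0.57, adjusted p = 0.00108), which carries Argonautes, and TSN (0.51, adjusted p = 0.00191), a subunit of the passenger-strand nuclease C3PO, rose. HSPA8 (-0.58, adjusted p = 0.000215 by limma), the HSP70 chaperone of the loading step, was the 1 that fell. HSP90AA1 went down to 0.23 with quantile scaling (adjusted p = 0.0193 by limma), while the calls of these 4 genes were kept in all 17 alternatives. With equal totals 3 were higher and 1 lower, and the median was -0.02, beside -0.12 over all genes tested. Upper quartile scaling gave 3 and 1, and quantile scaling 4 and 2.

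The list of effectors downstream of TNRC6 (CCR4-NOT and PAN2-PAN3 deadenylases, decapping factors and their cofactors) had the most calls and also the most genes. Of 29, 18 were higher and 3 lower (21.8% and 21.3% of all genes), that is 72.4% called beside 43.1% of all genes, with a median of 0.27. Without si-NEK2 2 the number higher was 11. The decapping activator DCP1A rose from 885 to 1722 normalized counts (0.98, adjusted p = 0.000792 by limma), and the decapping enzyme DCP2 (0.86, adjusted p = 0.000207) and the deadenylase CNOT6L (0.74, adjusted p = 0.000208) also rose. CNOT9, the CCR4-NOT subunit to which TNRC6 binds, fell from 3312 to 1485 normalized counts (-1.16, adjusted p = 3.65e-05 by limma). DCP1B, the paralog of DCP1A, fell with -0.63 (adjusted p = 0.0192 by limma), a call lost without si-NEK2 1 or si-NEK2 2 (up to 0.0694) and with quantile scaling (0.0762), and its log2 fold change was -0.41 without si-CTRL 1. The third decrease was TNRC6C. With equal totals 6 were higher and 4 lower, so that 10 of 29 were called, a lower share than the 41.9% of all genes. Upper quartile scaling gave 12 and 4, and quantile scaling 8 and 3.

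In the list of tailing, decay and Argonaute modification, 16 of 18 genes were tested, with 7 higher and 4 lower (21.8% and 21.3% of all genes) and a median of 0.16. Without si-NEK2 2 there were 4 higher, and without si-NEK2 1 there were 2 lower. ERI1 (0.77, adjusted p = 0.000529 by limma), an exonuclease of small RNAs, ANKRD52 (0.42, adjusted p = 0.00193), of the phosphatase that acts on Argonaute, and TENT2 (listed as PAPD4, 0.29, adjusted p = 0.00882), a terminal nucleotidyl transferase, rose. ZC3H12A (-1.10, adjusted p = 9.55e-05 by limma), an endonuclease whose row also carries MIR6732, TRIM71 (-0.69, adjusted p = 0.0127), a ubiquitin ligase and RNA-binding protein, and PNPT1 (-0.43, adjusted p = 0.00651), an exonuclease, fell. TRIM71 was lost without si-NEK2 1 (limma adjusted p = 0.0535), and TENT2 with equal totals (0.0824). LIN28A and LIN28B, which block let-7 maturation, were below the filter with at most 10 and 2 reads in any library. With equal totals 2 genes of the list were higher and 4 lower, and with quantile scaling 4 and 3.

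Of the PIWI genes, the germline branch of the Argonaute superfamily, PIWIL1 and PIWIL3 were at or near 0 and the others were low. PIWIL1 was at 0 reads throughout, compatible with up to 3 reads per library, and PIWIL3 had 0 to 2 reads. PIWIL2 had 38.7, 35.8 and 23.8 normalized counts in si-CTRL and 14.7, 16.3 and 22.4 in si-NEK2 (log2 fold change -0.84 ± 0.30 SE, adjusted p = 0.0491 by limma), from 18 to 37 reads. This call was lost without any 1 of si-CTRL 1, si-CTRL 2, si-NEK2 1 and si-NEK2 2 (adjusted p of up to 0.142 by limma). It was also lost with a pseudocount of 0.1, with no filter, with quantile scaling, with a replicate block and in DESeq2. A filter at a mean of 50 left PIWIL2 untested. PIWIL4 shares its row with FUT4, with 45 to 108 reads on the row, and did not pass (0.18, adjusted p = 0.57 by limma).

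Long transcripts that host miRNAs, the substrates of DROSHA, were listed for 17 of 20 genes, of which 16 were tested, with 3 higher and 3 lower, that is 37.5% called beside 43.1% of all genes, and a median of 0.02. MIR600HG fell from 601 to 231 normalized counts (-1.37, adjusted p = 5.31e-05 by limma), MIR503HG from 259 to 169 (-0.62, adjusted p = 0.00981) and MIR155HG from 1096 to 871 (-0.33, adjusted p = 0.0313). MIRLET7BHG rose from 721 to 920 normalized counts (0.36, adjusted p = 0.0291 by limma), MIR31HG from 2270 to 2862 (0.34, adjusted p = 0.0275) and MIR4435-2HG from 2051 to 2583 (0.34, adjusted p = 0.0125). Of these 6 calls, those of MIR600HG and MIR503HG were kept in 17 of 17 alternatives. MIR155HG was lost without any 1 of si-CTRL 2, si-CTRL 3, si-NEK2 1 and si-NEK2 2 (limma adjusted p of up to 0.123), MIRLET7BHG without si-NEK2 1 or si-NEK2 2 (0.0971), MIR31HG without any 1 si-NEK2 library (0.104) and MIR4435-2HG without si-NEK2 2 (0.0658). Without si-NEK2 2 no host was higher and 2 were lower, and without si-NEK2 1 there was 1 higher and 2 were lower. MIR31HG was 0.22 without si-CTRL 1. With equal totals no host was higher and 4 were lower, and with quantile scaling 4 were higher and 3 lower.

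A mature arm is given for miRNA genes that share a row with these hosts, except MIR4763 of the MIRLET7BHG row, to show examples of what the rows carry, from RefSeq (GRCh38.p14), 5′ to 3′ with the seed, bases 2 to 8, in capitals. The let-7 pair of the MIRLET7BHG row has 1 seed in common, and the other 3 seeds differ. Their own levels were not measured.
let-7a-5p: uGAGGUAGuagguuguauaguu
let-7b-5p: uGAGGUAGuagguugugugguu
miR-155-5p: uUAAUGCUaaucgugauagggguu
miR-424-5p: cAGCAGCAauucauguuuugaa
miR-600: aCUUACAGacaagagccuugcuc

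**Figure D5:**
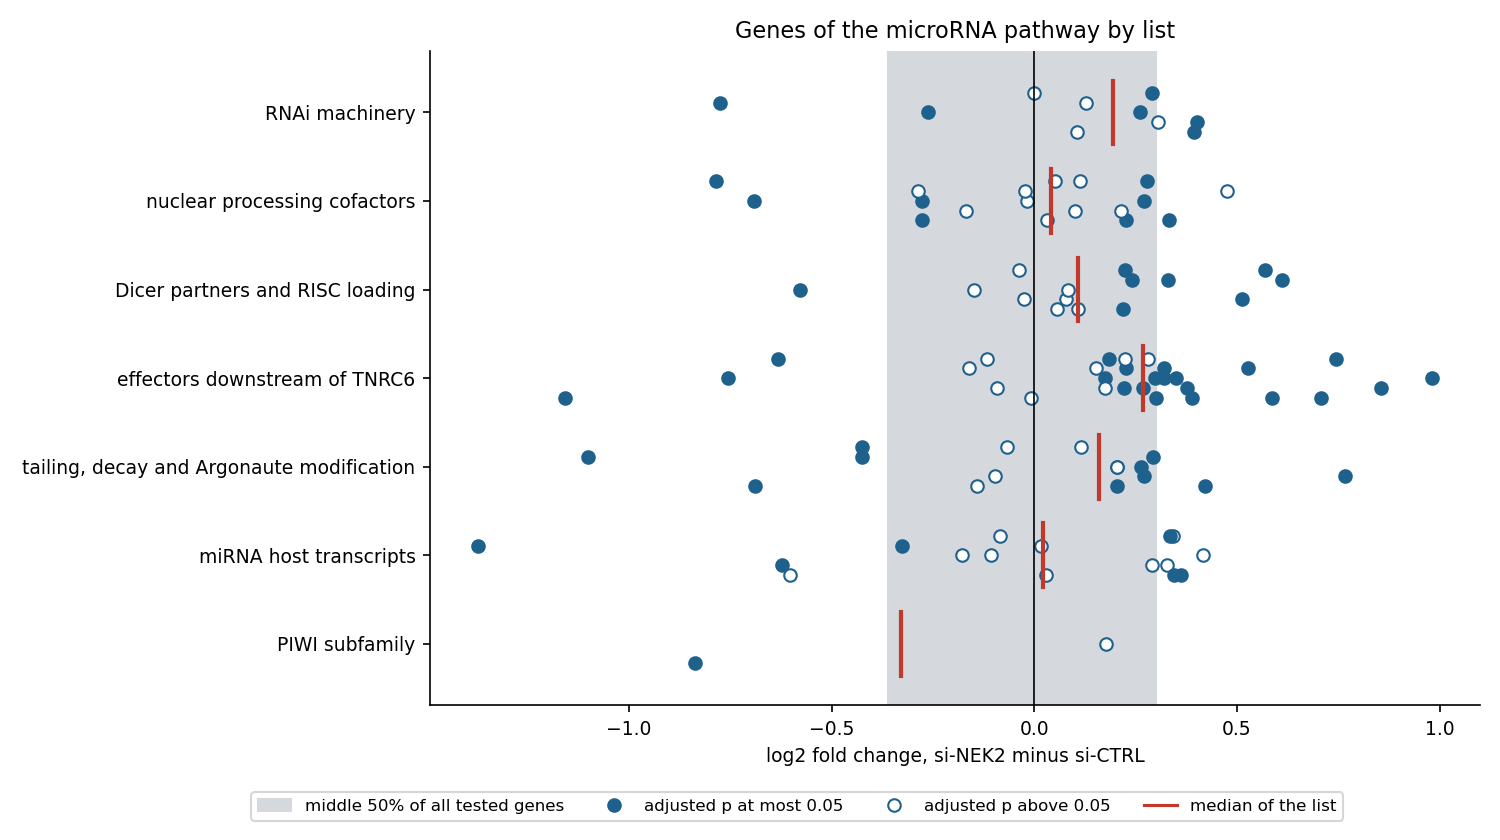
Log2 fold change (si-NEK2 minus si-CTRL, horizontal axis) of each tested gene of the machinery and of the 6 lists, filled where the adjusted p (limma) was at most 0.05, with the median of each list as a red line and the middle 50% of all tested genes as a grey band. The median of the effectors downstream of TNRC6 is 0.27 and that of the nuclear processing cofactors 0.04, beside 0.01 over all genes.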

How the data were processed

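PolyA-enriched RNA of 3 si-CTRL and 3 si-NEK2 libraries was sequenced. The authors deposited 1 normalized count (signal) per gene and library, made from the reads on the gene and a size factor from DESeq2. Annotation was FAST DB, with hg19 coordinates. The submitters' processing notes name STAR 2.4.0, SAMtools, Picard, FastQC and DESeq2. Which counter was used and whether it took strand into account are not given in the sources used here, and reads of genes that overlap or lie antisense may be mixed. The labels and the methods differ on the time of harvest and on the RNA kit. The medium is given here as high-glucose, whereas the paper's methods name an RPMI medium for these cells. The paper's methods also describe single-end reads and its Results paired-end reads. The deposited signal was a whole number of reads, within 0.01 read, in 100% of values, and 1 read was worth 0.818 to 1.25 normalized counts.

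Libraries were grouped by the labels. Nothing in the labels says that the libraries of a group came from separate cultures, so that p-values measure the spread between these libraries, which may be technical. Genes that averaged 10 normalized counts or more were log2-transformed with a pseudocount of 1 and tested in R 4.3.3 by limma 3.58.1 (lmFit, then eBayes with a trend on intensity), and p-values were adjusted by Benjamini-Hochberg over 18717 genes. Fold changes on this scale understate those of low genes. Family shares and ratios within a library were compared with exact two-sided permutation tests. Lists were described by counts and medians with no set test. The text names all members, TNRC6B, TNRC6C and the PIWI genes and, per list, up to 3 rises and 3 falls by size among called genes that average 50 or more and whose groups do not overlap. NCBP2 is named in addition, beside NCBP1. Members and lists were chosen with earlier results of these data known. KHSRP, MIR222HG, MIR29B2CHG and MIR205HG were not analysed here, and MIR99AHG was below the filter.

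There were 17 alternatives. The pseudocount was set to 0.1 or 5, the filter was dropped or raised to 50, and the libraries were rescaled by upper quartile, to equal totals or by quantiles. The trend was dropped from eBayes, replicate numbers were fitted as a block, and every library was omitted once. The recovered reads were tested with edgeR 4.0.16 (TMM, quasi-likelihood) and with DESeq2 1.42.0. Both estimate the scaling anew, so that the input, the model and the scaling change together. The ratios between members and the TNRC6 shares were added after the data were seen. Exon lengths are from GENCODE v29 (GRCh38), and promoter and miRNA sequences from RefSeq GRCh38.p14. Scripts were tested on simulated data.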

Additional observations from a re-analysis of the deposited data

How the results depend on the processing

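XPO5, DICER1 and TNRC6A kept their direction and their call in all 17 alternatives. Over the 6 fits that left out 1 library each, the number of members called ranged from 4 to 8 (6 with all libraries), that of members higher from 3 to 6, that of members lower from 1 to 2 and that of pathway list genes from 30 to 66. Over the same fits, the share of all genes tested that were called ranged from 31.5% (without si-NEK2 2) to 49.9% (without si-CTRL 1). Without si-CTRL 1, which held the highest si-CTRL value for 8 of the 10 members, 8 members were called, beside that 49.9%. Without any 1 si-NEK2 library, 1 member (XPO5) was lower. Without si-NEK2 1 and si-NEK2 2, 36 and 30 list genes were called, beside 33.8% and 31.5% of all genes tested. With equal totals 2 members were higher, and 32 of 96 list genes were called, a lower share than the 41.9% of all genes tested. Before rescaling 55 list genes were called, a higher share than the 43.1% of all genes tested. At equal totals the log2 difference of the Argonaute sum went from -0.05 to -0.18, and the log2 fold changes of AGO1 (-0.024) and DGCR8 (-0.001) changed sign. That of AGO3, -0.002 with all libraries, was 0.040 with quantile scaling and, over the fits that left out 1 library, between -0.069 (without si-CTRL 3) and 0.064 (without si-NEK2 3), above 0 also without si-CTRL 1 (0.017) and si-CTRL 2 (0.046). Per kilobase the difference in AGO4 share was 3.12 percentage points, against 1.75 by counts. The cause of these differences was not tested. The labels do not say whether libraries with the same replicate number were handled as pairs. Correlations of their deviations from the group means were -0.091, 0.047 and -0.147, and those of unlike numbers ran from -0.119 to 0.18. Such values cannot show whether the libraries were paired. With a replicate block 5 members were called, DROSHA losing its call (limma adjusted p = 0.0821), 41 list genes and 6883 of 18717 genes against 8063. edgeR called 8004 genes and DESeq2 8215, with 6 members called by each. Calls without a filter numbered 7560 of 33327 genes and with a mean of at least 50 7574 of 14958. With 3 libraries a group, the exact tests cannot go below 0.10.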
